A study of Rattus norvegicus with 40 samples.

Results

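The cytosolic ribosomal proteins were followed in cultured rat heart muscle cells during ischemia and during ischemia with reperfusion. Members were chosen by gene symbol: probe sets with 1 symbol beginning with Rpl or Rps and a number, or Rplp0 to Rplp2, without the Rps6k kinases, and with the brightest probe set standing for each gene. This gave 47 genes, 33 of the large and 14 of the small ribosomal subunit, out of 14217 genes with a symbol on the array, and from 52 probe sets. A further 36 ribosomal probe sets carried several symbols and were not used. Of the 47 members, 44 passed the filter on low values and were tested, 31 large and 13 small.

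The cells were neonatal rat ventricular myocytes, a primary culture of heart muscle cells from newborn rats, made ischemic by coverslip hypoxia, in which a coverslip over the cell layer limits exchange with the medium. Total RNA was measured on 40 Affymetrix rat genome arrays in 10 groups of 4. The groups were ischemia, or ischemia+reperfusion, at labelled times of 0, 10, 30, 60 and 120 min, with 2 duplicates from each of 2 cell preparations in every group. What the duplicates share is not in the labels, nor is how long reperfusion lasted or in what way the 0 min groups of both arms differed in handling. No strain, age beyond neonatal, or genotype is named. Duplicates were averaged, so n is 2 preparations per group, and p-values reflect only how these averages spread, which may be partly technical.

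A ribosome is built from ribosomal RNA and a set of proteins that are needed in equal number, and the mRNAs of these proteins are among the most abundant and long-lived of a cell. Most begin with a terminal oligopyrimidine (TOP) tract, a C at the cap followed by C and T bases, through which the mTORC1 kinase pathway and the RNA-binding protein Larp1 govern their translation more than their amount. Several members have paralogs with restricted expression or a separate role, such as Rpl3l, the striated muscle form of Rpl3, and Rps27l, a p53-induced relative of Rps27.

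The starts of the member genes are shown first, because the TOP tract is the feature that the family shares beyond its name. Promoter sequences were taken from RefSeq (build GRCr8) and were found for 42 of the 47 members. Rpl23a, Rpl27, Rpl30, Rpl7 and Rps29 were not matched. A tract was counted where a C was followed by at least 5 bases that were each C or T, with the C within 10 bases on either side of the annotated start, on the gene's strand. Of the 42 members 24 had such a tract (57.1%), against 17.1% of all 33469 promoters. Each member was counted once, by its first promoter entry, while every entry was counted for all promoters. The fixed letters CTTTCC began within the same window in 7 members (16.7%) against 0.974% of all promoters, and the same letters on the other strand, GGAAAG, in 0 members against 1.08%; a CTTTCC match is itself part of a tract. A run of at least 4 C or T bases after a C exactly at the annotated start was present in 12 members (28.6%) against 2.63%. Annotated starts can lie some bases from the one used in these cells, so no match says only that these letters are not in this window.

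The windows of 30 bases, 15 before and 15 from the annotated start, are given for members on which results below turn, with the tract in capitals. Rpl22 lies at chr5:168117946-168117975 (plus strand), Rps24 at chr16:96502-96531 (plus), Rpl37a at chr9:81748076-81748105 (plus), Rps28 at chr7:15311319-15311348 (minus), Rpl39 at chrX:121195882-121195911 (minus), Rps27l at chr8:76443643-76443672 (plus), Rpl7l1 at chr9:21695703-21695732 (plus) and Rps4y2 at chr4:183000898-183000927 (plus).
Rpl22: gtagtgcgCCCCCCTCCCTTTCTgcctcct
Rps24: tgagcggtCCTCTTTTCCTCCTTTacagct
Rpl37a: gcatgcccgttgcgtCTCTTCCTCTTCggg
Rps28: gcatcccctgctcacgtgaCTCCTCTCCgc
Rpl39: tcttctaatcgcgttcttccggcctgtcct
Rps27l: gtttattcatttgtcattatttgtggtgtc
Rpl7l1: agctgcagatgcattgtgggaagcctttaa
Rps4y2: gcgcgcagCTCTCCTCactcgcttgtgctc
Of the 6 paralog members (Rpl3l, Rpl7l1, Rpl26l1, Rpl39l1, Rps27l and Rps4y2) only Rps4y2 had a tract in this window, while 23 of the other 36 matched members had one. The Rpl39 window held no tract by this rule but is 1 of the 12 with a shorter run of at least 4 C or T bases after a C exactly at the annotated start.

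Some arrays stood apart. The first of them was the 0 min ischemia array of preparation 1, duplicate 1, whose correlation with other arrays had a median of 0.872; for every other array this median was at least 0.960. A pair of arrays at 120 min (preparation 2, duplicate 2, of ischemia and preparation 2, duplicate 1, of ischemia+reperfusion) went against their labels in the heat shock gene Hspa1a: 9043 where the other ischemia arrays read 773 to 1156, and 847 where the other ischemia+reperfusion arrays read 8156 to 9726. Members called or named at that time are therefore also given without this pair where it changes the value or the call, and gene lists where it changes a count. Cardiomyocyte markers were on the array for 11 genes and summed to a normalized intensity of 85624 to 99485 per array. The same sums ran from 36279 to 50404 for 11 fibroblast markers, from 1733 to 3048 for 7 endothelial, from 3860 to 7472 for 10 macrophage and from 17872 to 26515 for 6 smooth muscle markers, and from 27.9 to 515 for 4 erythroid markers, of which none passed the filter.

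On the quantile-normalized scale few ribosomal protein genes differed between groups, while with arrays centred on their median most did. Over 13 comparisons and 44 genes, 572 tests in all, 2 passed an adjusted p of 0.05 by limma with Benjamini-Hochberg adjustment over 18625 probe sets: Rps27l was lower after 10 min of ischemia and Rpl22 was higher after 120 min. The median change of the 44 genes lay between -0.013 and 0.018 log2 units in every comparison on that scale. An unadjusted p under 0.05 was reached in 27 of the 572 tests. With each array centred on its median in place of quantile normalization, 29 of the 44 members were called lower in ischemia+reperfusion than in ischemia at 60 min (median -0.40). On the deposited scale 7 of the 44 members were called lower at 120 min of ischemia, a share slightly below that of all probe sets. The shares of all probe sets called are given below for each of these counts. The values that follow are on the quantile-normalized scale unless another is named.

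**Figure D1:**
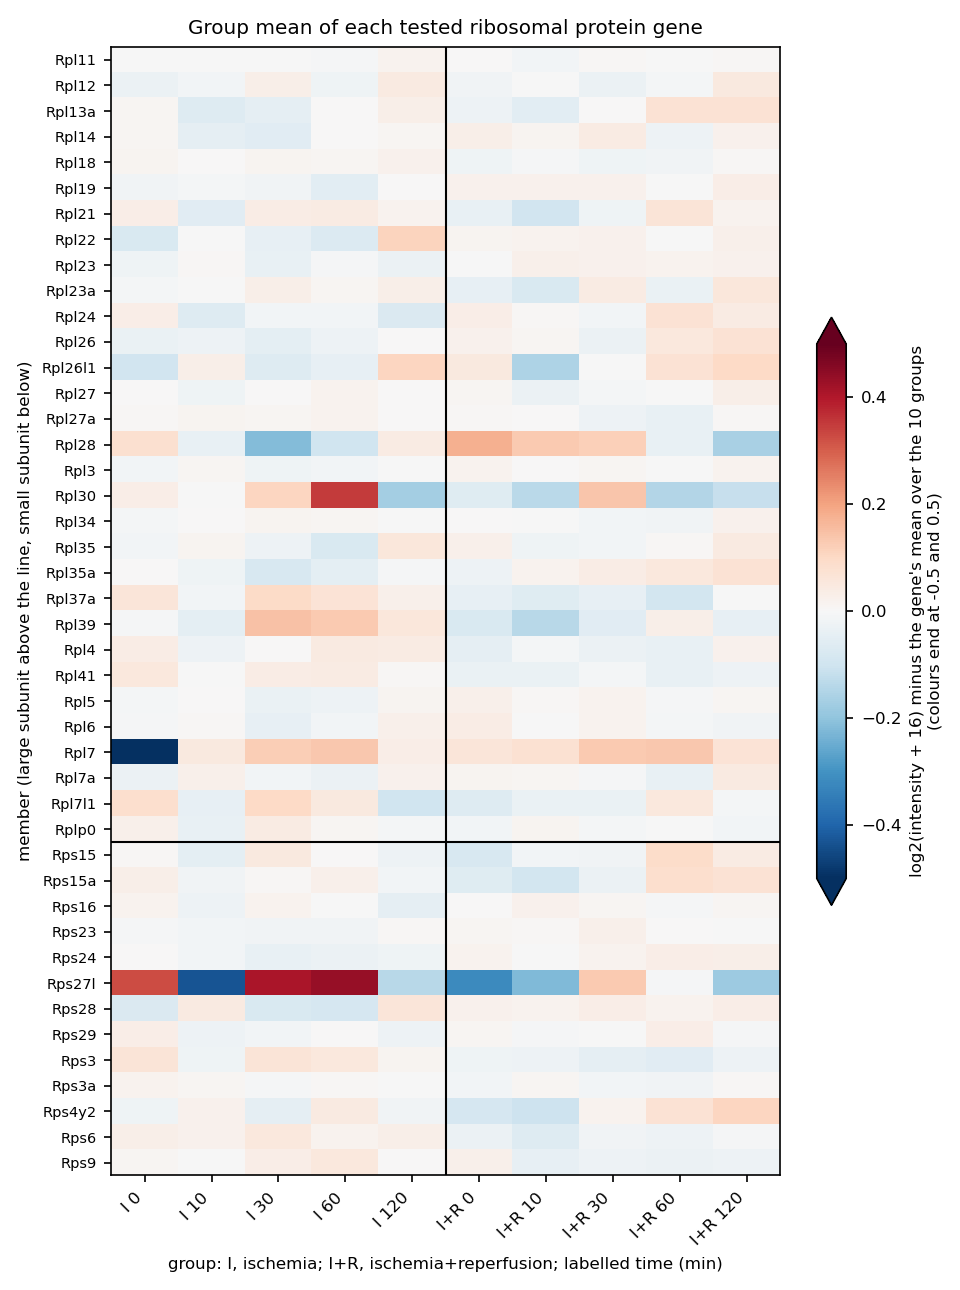
Group mean of each of the 44 tested members (rows, large subunit above the line, small below) in the 10 groups (columns), as log2(intensity + 16) minus the gene's own mean over the groups; colours end at -0.5 and 0.5. Values are on the quantile-normalized scale, on which most rows are pale throughout: 37 of the 44 members have a range of group means under 0.2, and Rps27l, Rpl7, Rpl30 and Rpl28 stand out.

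Values on the quantile-normalized scale lay close together. Of the 44 tested members 38, 27 large and 11 small, had a mean deposited intensity above 3000 and are called bright here. Their deposited means ran from 3593 for Rpl39 to 13863 for Rps23, a protein near the decoding site; these are probe set values and do not rank the genes by mRNA amount. The median within-group SD was 0.044 log2 units for the 44 members and 0.040 for the 38 bright ones, against 0.18 for all tested probe sets and 0.076 for the 1356 tested probe sets above 3000. The 95% interval of a change had a median half-width of 0.11 among bright members. Between 35 and 39 of the 44 members, depending on the comparison, had a 95% interval that lay wholly within 0.25 log2 units of 0, and between 40 and 42 had one within 0.5. The members outside 0.5 in at least 1 comparison were Rpl30, Rpl7, Rpl28 and Rps27l.

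The range of the 10 group means was narrow gene by gene on this scale, which itself limits the brightest genes. Quantile normalization gives each rank 1 fixed value on every array. Rpl3, which helps form the peptidyl transferase centre, ranked between 1 and 5 of 31042 probe sets on every array, so it could take only 5 values, from 13125 to 14237, and its range of 0.037 was limited by the scale. On the deposited scale the range of Rpl3 was 0.33 and with arrays centred on their median 0.45. The median range of the bright members was 0.28 and 0.43 on those scales. On the quantile-normalized scale the median range over bright members was 0.089 log2 units, 0.088 in the large and 0.096 in the small subunit. Rpl11, which with Rpl5 binds the p53 regulator Mdm2 when ribosome assembly fails, had the narrowest, 0.030, with normalized intensities from 9768 to 10972 over the 40 arrays. Rps3a, a small subunit protein near the mRNA exit, had 0.037, and Rplp0, the base of the stalk that recruits elongation factors, had 0.081. Rps6, the substrate of the S6 kinases downstream of mTORC1, had 0.12, with intensities from 10078 to 11939. Leaving Rpl7 aside, the widest range of a bright member was 0.29, that of Rpl39. The ranges of the 7 members at or above 0.2 belonged to Rpl26l1, Rpl28, Rpl30, Rpl39, Rpl7, Rps27l and Rps4y2, of which only Rpl39 and Rpl7 are bright.

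Ischemia alone was compared with 0 min within the arm. At 10 min 1 of 44 members was called, Rps27l, where 1.98% of all tested probe sets were (0.838% in the same direction, lower). At 30 min 0 members were called against 0.0966%, and at 60 min 0 against 0.129%, with unadjusted p under 0.05 in 3 and 2 members by limma. At 120 min, where 12.9% of all probe sets and 5.97% of those above 3000 were called, 1 member was called, Rpl22; 6.45% of all probe sets were called higher. The median member change at 120 min was 0.0015, with 24 members positive and 20 negative, beside -4.3e-05 for all tested probe sets. Without the pair of arrays at 120 min 2 members were called there, Rpl22 (0.18, adjusted p = 0.033, limma) and Rpl7l1, and 0 at 10 min. The shares of all probe sets above are from the fit to all arrays. Those without the pair are not given here, so these counts do not set the members apart.

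Ischemia+reperfusion gave no call in any comparison with its own 0 min group by limma. The background of called probe sets was 0.0376% at 10 min, 0.784% at 30 min, 4.69% at 60 min and 7.17% at 120 min, and the number of members at an unadjusted p under 0.05 was 0, 1, 2 and 3. At 120 min the median member change was 0.018, with 33 of 44 members positive, beside -0.021 for all tested probe sets. The 3 members with an unadjusted p under 0.05 were Rpl28 (-0.34 ± 0.13 SE, adjusted p = 0.14), Rps4y2 (0.19 ± 0.080, adjusted p = 0.17) and Rps15a (0.13 ± 0.059, adjusted p = 0.21), all from limma. Without the pair these were -0.31, 0.22 and 0.065, with limma adjusted p-values of 0.17, 0.12 and 0.64.

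The arms were compared at equal times, which does not isolate reperfusion because 0.333% of probe sets already differed at 0 min. Of the members 0 were called at 0 min and at each later time. The backgrounds were 0% at 10 min, 0.532% at 30 min, 5.38% at 60 min and 0% at 120 min. By limma the unadjusted p was under 0.05 in 3 members at 0, 30 and 60 min and in 0 at 10 and 120 min. The interaction at 120 min, the change in the ischemia+reperfusion arm minus that in the ischemia arm, was called in 0% of probe sets and in 0 members, of which 3 had an unadjusted p under 0.05 by limma: Rps27l (0.60 ± 0.20 SE), Rpl22 (-0.18 ± 0.071) and Rpl7l1 (0.24 ± 0.087). Their adjusted p-values from limma ran from 0.36 to 0.43. Without the pair the interaction was -0.058 for Rps27l, so its sign turned, -0.18 for Rpl22 and 0.35 for Rpl7l1 (adjusted p = 0.95, 0.24 and 0.068, limma). Between the arms at 120 min 3.59% of probe sets and 0 members were called without the pair.

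**Figure D2:**
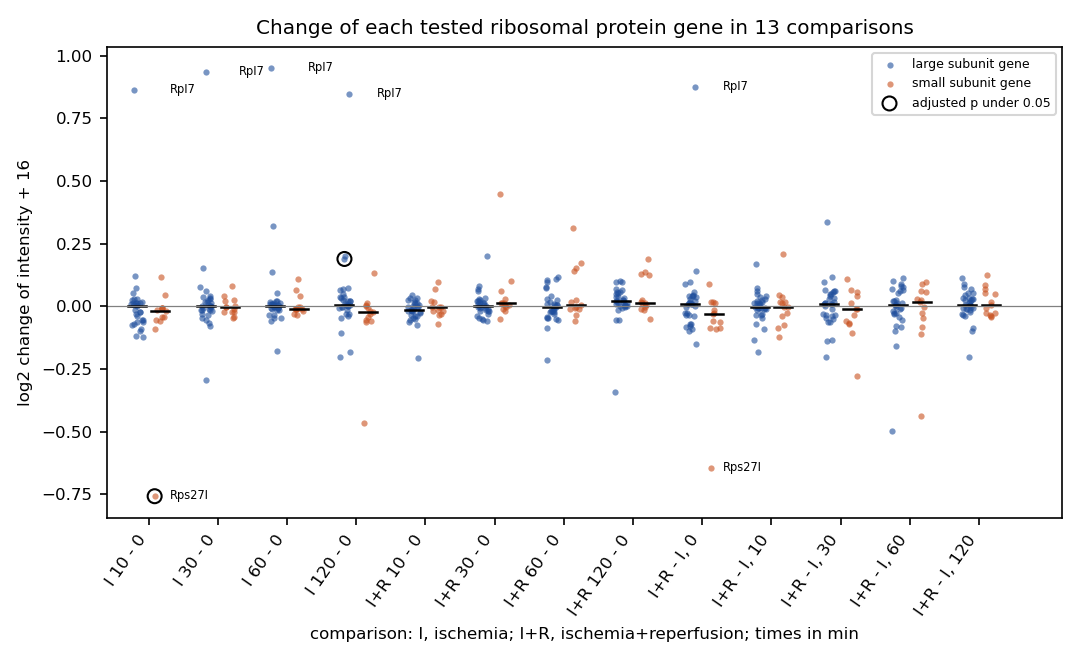
Log2 change of each tested member in the 13 comparisons (blue, large subunit; orange, small subunit; black lines, medians; rings, adjusted p under 0.05; members beyond 0.5 are named). The medians lie between -0.013 and 0.018 for the 44 members together, the ringed points are Rps27l at 10 min and Rpl22 at 120 min of ischemia, and the high points of Rpl7 rest on a single array.

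Large and small subunit genes were set against each other on every array. Each gene was centred on its mean over the 40 arrays and the members of a subunit were averaged. The array means ran from -0.11 to 0.043 for the large subunit and from -0.13 to 0.089 for the small. The lowest large subunit value was that of the array that stood apart at 0 min of ischemia. The group mean of large minus small was lowest in the ischemia group at 0 min, -0.057 ± 0.080 (SD, n = 4 arrays), and highest in the ischemia+reperfusion group at 0 min, 0.041 ± 0.034. These means are moved by single dim genes, so the median over bright members was taken as well, a choice made after the values were seen. On that measure large minus small was -0.015 ± 0.022 and 0.0093 ± 0.014 in the same groups. The largest group mean was 0.025 ± 0.020 at 120 min of ischemia, where the 4 arrays ran from 0.0060 to 0.052, and the values of all 40 arrays ran from -0.037 to 0.060.

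Per comparison, the median change of the large subunit minus that of the small lay between -0.013 and 0.039. At 120 min of ischemia the medians were 0.0068 for the large subunit, with 20 of 31 members positive, and -0.023 for the small, with 9 of 13 negative. At 120 min of ischemia+reperfusion they were 0.021 and 0.015. Between the arms at 0 min they were 0.0079 and -0.031. Over the 40 arrays the subunit means correlated with r = 0.28, and the bright medians with r = 0.39; the arrays share cell preparations, groups and a common normalization, so this is a description only.

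**Figure D3:**
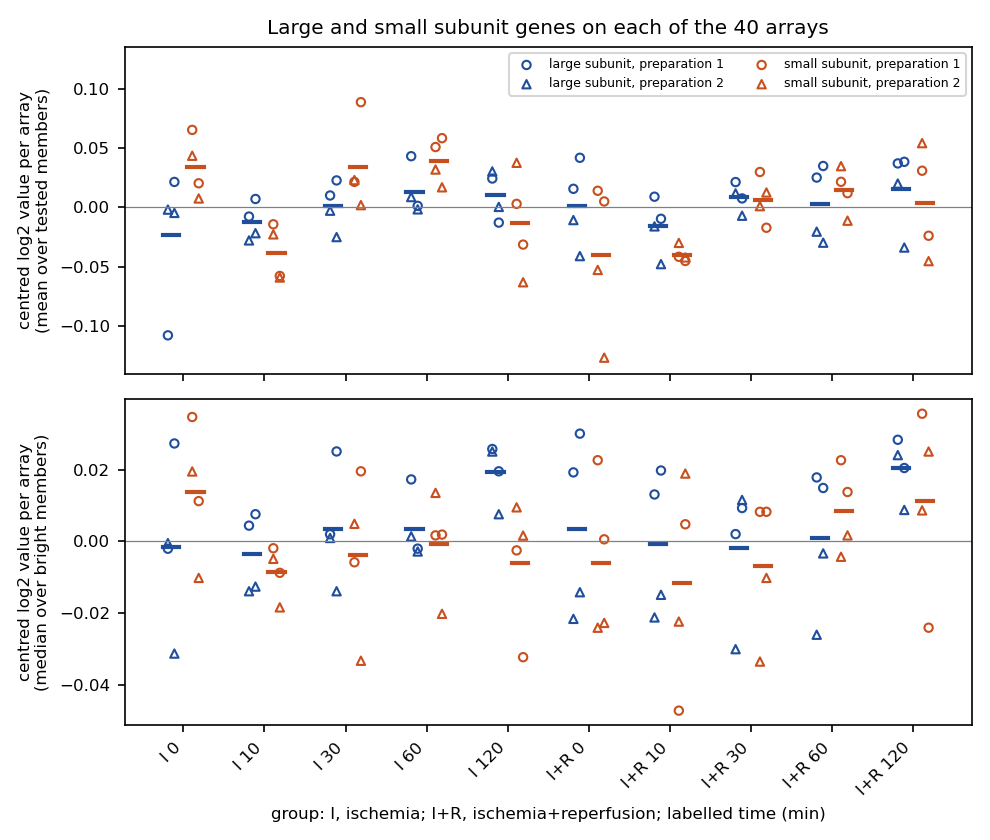
Centred log2 value of large (blue) and small (orange) subunit members on each of the 40 arrays by group, as the mean over the 44 tested members (upper panel) and the median over the 38 bright ones (lower panel); circles and triangles are preparations 1 and 2 and lines are group means. In the lower panel the arrays lie between -0.047 and 0.036 and both subunits overlap in every group.

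The differences of the family between groups depended on the scaling. Quantile normalization gives every array the same distribution, and the members sit near its upper end. On the deposited scale the median of all probe sets itself moved by -0.23 to 0.21 depending on the comparison, and the members moved with it. The median member change there was -0.25 at 120 min of ischemia, with 7 members called lower, beside -0.22 for all probe sets, 16.9% of which were called lower. With each array centred on its median, the median member difference of ischemia+reperfusion from ischemia was -0.22 at 0 min, -0.056 at 10 min, -0.26 at 30 min, -0.40 at 60 min and -0.22 at 120 min. By limma 0 members were called at 0, 10, 30 and 120 min. An unadjusted p under 0.05 (limma) was reached in 29, 0, 33 and 29 of them. The difference was negative in 38 to 41 of the 44. Matching counts for all probe sets, or for those above 3000, are not given here, so these counts do not set the members apart. At 60 min 29 of 44 members were called lower, beside 25.2% of the probe sets above 3000, whose median was -0.23, and 4.69% of all probe sets, whose median was -0.057. The F test over the 10 groups called 32 of 44 members on that scale, beside 27.4% of the probe sets above 3000 and 18.4% of all. Between the arms at 60 min 29 members were thus called on the median-centred scale and 0 on the quantile-normalized one.

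The distance between the bright members and the median of the tested probe sets also varied between groups before any normalization. On the deposited log2 scale the bright members' median was compared with the median of the tested probe sets on each array. It lay 4.60 ± 0.15 (SD, n = 4 arrays), 4.73 ± 0.14 and 4.74 ± 0.080 above in the ischemia groups at 0, 30 and 60 min. It lay 4.37 ± 0.11 above in the ischemia group at 10 min and 4.57 ± 0.023 at 120 min. In the ischemia+reperfusion arm the group means ran from 4.29 to 4.42. The ischemia groups at 0, 30 and 60 min therefore had the largest mean distances of the 10 groups. The 0 min ischemia arrays read 4.72, 4.38, 4.62 and 4.67, and the highest was that of the array that stood apart. The ischemia arrays at 120 min, 4.55 to 4.60, lay inside this span, so the 0 min group was not clearly above them. The part of these groups in the differences between arms on the median-centred scale was not tested.

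Rps27l, a paralog of the small subunit protein Rps27 known as a p53 target, varied most among the tested small subunit members and was called by the F test over the 10 groups (adjusted p = 0.016, limma). That test called 2 of 44 members (4.55%) and 15.2% of all tested probe sets. At 0 min of ischemia its normalized intensities were 1123, 916, 1107 and 1159 in preparation 1, duplicates 1 and 2, and preparation 2, duplicates 1 and 2. At 10 min they were 772, 521, 700 and 549. All 4 arrays at 10 min lay below all 4 at 0 min, and the change was -0.76 ± 0.14 log2 units (SE, limma adjusted p = 0.030; 95% interval -1.07 to -0.45).

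The lower level was not kept at the next times. At 30 min the Rps27l arrays read 1030, 1378, 1122 and 1042, and at 60 min 1212, 1232, 1097 and 1089. At 120 min of ischemia they read 846, 680, 1252 and 490, overlapping with 0 min (-0.47 ± 0.14 SE, limma adjusted p = 0.054). Leaving out single arrays moved that value between -0.80 and -0.13, and it was -0.13 (adjusted p = 0.71, limma) without the pair. In the ischemia+reperfusion arm the 0 min arrays read 786, 767, 761 and 464, below the 0 min ischemia arrays without overlap (-0.64 ± 0.14, limma adjusted p = 0.077). The ischemia+reperfusion arrays read 520 to 1023 at 10 min, 740 to 1114 at 30 min, 706 to 1213 at 60 min and 501 to 1268 at 120 min, and these groups overlapped.

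Duplicates of Rps27l differed widely. Duplicate 1 was above duplicate 2 in 17 of 20 pairs, by a median of 0.33 log2 units and at most 1.33. In 6 of the 10 groups both duplicate 1 arrays lay above both duplicate 2 arrays, a split that 2% of all tested probe sets showed in 6 or more groups in the same direction, the dim Rpl30 probe set among them. The second probe set of Rpl7 showed it in 7 groups, with 503 to 645 in duplicate 1 and 220 to 406 in duplicate 2, while at 30 min of ischemia it split the other way, with 586 and 643 in duplicate 1 and 714 and 810 in duplicate 2, and at 60 min the duplicates overlapped between 622 and 727. Neither probe set had duplicate 1 above duplicate 2 in this way in the ischemia groups at 0, 30 and 60 min, so it moves with the Rps27l comparison of 10 with 0 min, and its part in that result was not tested. Within duplicate 1 the change at 10 min was -0.59 and within duplicate 2 it was -0.93. Within preparation 1 it was -0.66 and within preparation 2 -0.85. Without the 0 min ischemia array that stood apart it was -0.69 (adjusted p = 0.0501, limma), without the second duplicate of preparation 1 at 10 min -0.62 (0.069) and without that of preparation 2 -0.67 (0.055). Without the pair at 120 min it stayed at -0.76 with an adjusted p of 0.10 (limma), so the call depended on single arrays while the direction did not.

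Rpl22, an RNA-binding protein of the large subunit best known from T cell development, was the member called at 120 min of ischemia. Its normalized intensities were 9205, 9377, 8902 and 8676 at 0 min and 9822, 10442, 10400 and 10558 at 120 min. Every 120 min array lay above every 0 min array, and the change was 0.19 ± 0.050 log2 units (SE, limma adjusted p = 0.032; 95% interval 0.079 to 0.30). The groups in between read 9130 to 9667 at 10 min, 8935 to 9548 at 30 min and 8779 to 9493 at 60 min, overlapping with 0 min. In the ischemia+reperfusion arm Rpl22 read 9423 to 9726 at 0 min and 9423 to 10127 at 120 min, a change of 0.014 ± 0.050, and the interaction did not pass the test (adjusted p = 0.43, limma). At 0 min this arm lay above the ischemia arm without overlap (0.090 ± 0.050 SE, limma adjusted p = 0.37). The 0 min ischemia group, the reference of the call, had the lowest Rpl22 mean of the 10 groups.

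The Rpl22 change was small and depended on settings. It was 0.12 within preparation 1 and 0.25 within preparation 2, and 0.16 and 0.22 within duplicates 1 and 2. The call was lost without the preparation block (adjusted p = 0.062, limma), without the second array of preparation 1 at 120 min (0.17, adjusted p = 0.066), and with arrays centred on their median (0.14, adjusted p = 0.26). On the deposited scale the change was -0.053 (adjusted p = 0.70, limma), where all probe sets had a median of -0.22. At the same time 3 of 11 fibroblast and 3 of 6 tested endothelial markers were called higher by limma, beside 6.45% of all tested probe sets. Pecam1 was among these markers at 1.04 ± 0.24 (adjusted p = 0.021, limma). Without the pair the marker counts were 4 and 3, and the share of all probe sets called higher in that fit is not given here. The summed fibroblast markers ran from 38129 to 44119 at 0 min and from 45752 to 48060 at 120 min, and the endothelial ones from 1782 to 2423 and from 2100 to 3048, with no marker of either list at 0 on all arrays of a group. In the ischemia+reperfusion arm the fibroblast sums ran from 40858 to 50404 at 0 min and from 44400 to 49843 at 120 min. The endothelial sums of that arm ran from 1756 to 2432 and from 2132 to 2917. A shift in cell types and a shift in RNA per cell cannot be told apart in such bulk samples. Their part in the Rpl22 change was not tested.

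**Figure D4:**
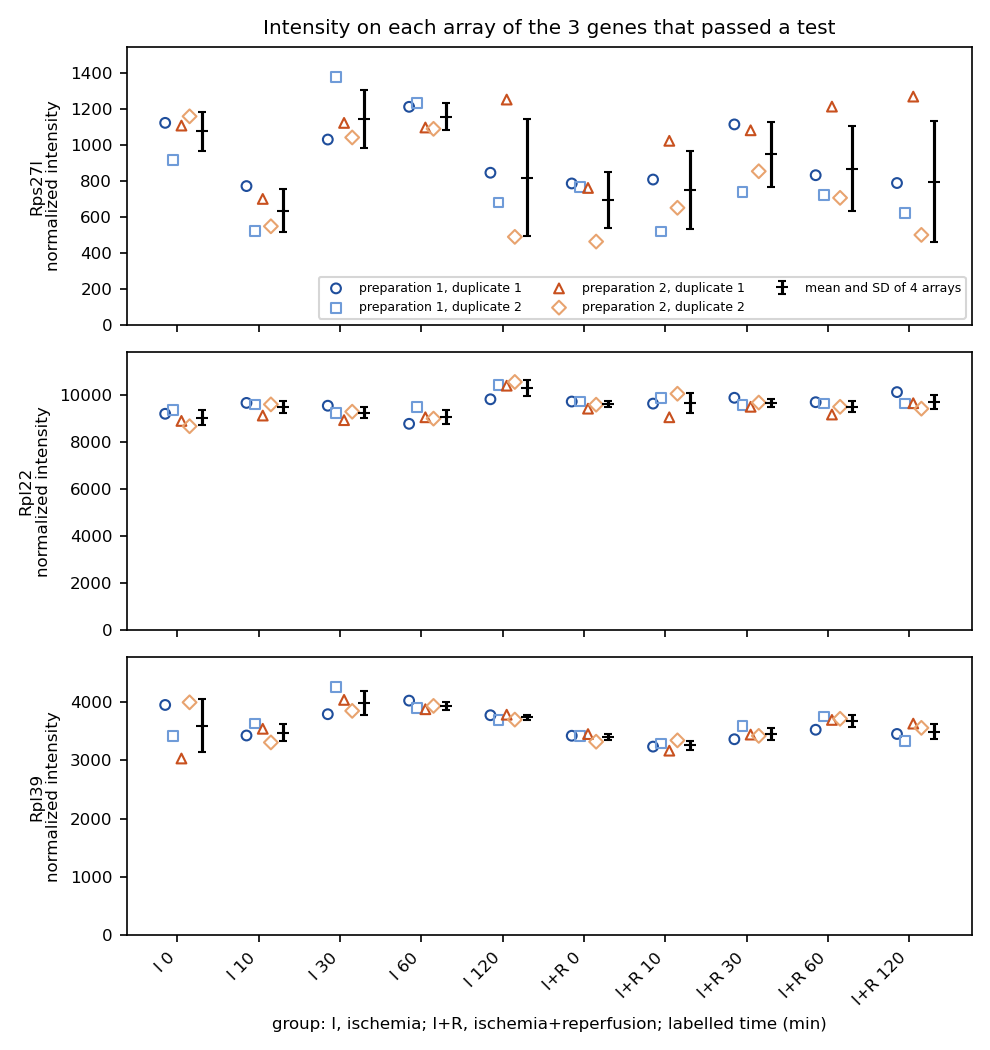
Normalized intensity of Rps27l, Rpl22 and Rpl39 on each of the 40 arrays by group, with the mean and SD of the 4 arrays in black; all axes start at 0. Rps27l falls from 916 to 1159 at 0 min to 521 to 772 at 10 min of ischemia and its duplicates separate, Rpl22 reads 9822 to 10558 at 120 min of ischemia, and Rpl39 is highest in the ischemia groups at 30 and 60 min.

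Rpl39, a very short protein that lines the nascent chain exit tunnel, was the other member called by the F test (adjusted p = 0.034, limma) and had the widest range of the undisturbed bright members. That call was lost on leaving out any 1 of 5 arrays: the second duplicate of either preparation at 0 min, that of preparation 1 at 30 min or the first duplicate of preparation 2 at 120 min of ischemia, or the second duplicate of preparation 2 at 120 min of ischemia+reperfusion. Without the last of these Rps27l lost its F test call too, and the count of members fell from 2 to 0; without any other of the 5 it was 1. At 0 min of ischemia its arrays read 3945, 3408, 3028 and 3990, a wide spread. They read 3303 to 3628 at 10 min, 3786 to 4250 at 30 min, 3871 to 4019 at 60 min and 3685 to 3778 at 120 min. In the ischemia+reperfusion arm they read 3316 to 3446, 3162 to 3339, 3358 to 3588, 3520 to 3745 and 3325 to 3625 at 0, 10, 30, 60 and 120 min. At 30, 60 and 120 min the arms did not overlap, with the ischemia arm higher. The difference was -0.20 ± 0.053 at 30 min (SE, limma adjusted p = 0.099), -0.10 at 60 min (0.28) and -0.098 at 120 min (0.76; -0.11 and 0.26 without the pair), so no single comparison passed. The 30 min difference was -0.21 within preparation 1 and -0.20 within preparation 2. On the deposited scale the Rpl39 difference was -0.084 at 30 min (adjusted p = 0.63, limma) and 0.0031 at 60 min (0.99). With arrays centred on their median it was -0.24 at 30 min (adjusted p = 0.10, limma). At 60 min it was -0.26 on that scale and passed (adjusted p = 0.036, limma).

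Other bright members stayed under the threshold with groups that did not overlap. Rpl37a, a zinc-binding protein of the large subunit, read 7660, 8483, 7869 and 7729 at 60 min of ischemia and 7266, 7014, 7081 and 7067 at 60 min of ischemia+reperfusion, a difference of -0.16 ± 0.056 (SE, limma adjusted p = 0.12). Its 30 min difference was -0.14 (adjusted p = 0.26, limma), also without overlap. The arms already differed by -0.10 ± 0.056 at 0 min (SE, limma adjusted p = 0.37), again without overlap. The bright members Rpl21, Rpl22, Rpl41, Rps15a and Rps3 did not overlap between the arms at 0 min either. The share of all probe sets without overlap is not given here. Rps28, near the mRNA exit of the small subunit, read 7688 to 8740 at 0 min and 9000 to 9222 at 120 min of ischemia, a change of 0.13 ± 0.051 (SE, limma adjusted p = 0.11; 0.12 and 0.12 without the pair). These members and Rpl39 were named after their values were seen.

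In Rpl7, a large subunit protein, a single array set the widest range of a bright member. Its 3 undisturbed arrays at 0 min of ischemia read 10660, 10579 and 10349, and the 36 arrays of the other groups lay from 9174 to 10768. On the array that stood apart it read 732. The second Rpl7 probe set read 10349 on that array and 220 to 810 on the other 39, so each probe set lay in the range of the other there. Of the tested probe sets on this array 821 deviated by over 2 log2 units from their mean over the other arrays, against 2 to 61 (median 14) on the others. Of these 664 carried 1 symbol, 580 had another probe set of the same gene, and 401 matched that probe set's level within 0.5 log2 units. The fitted Rpl7 changes against 0 min, 0.85 to 0.95 and none of them called, became -0.097, -0.024, -0.0096 and -0.11 at 10, 30, 60 and 120 min of ischemia without the array.

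**Figure D5:**
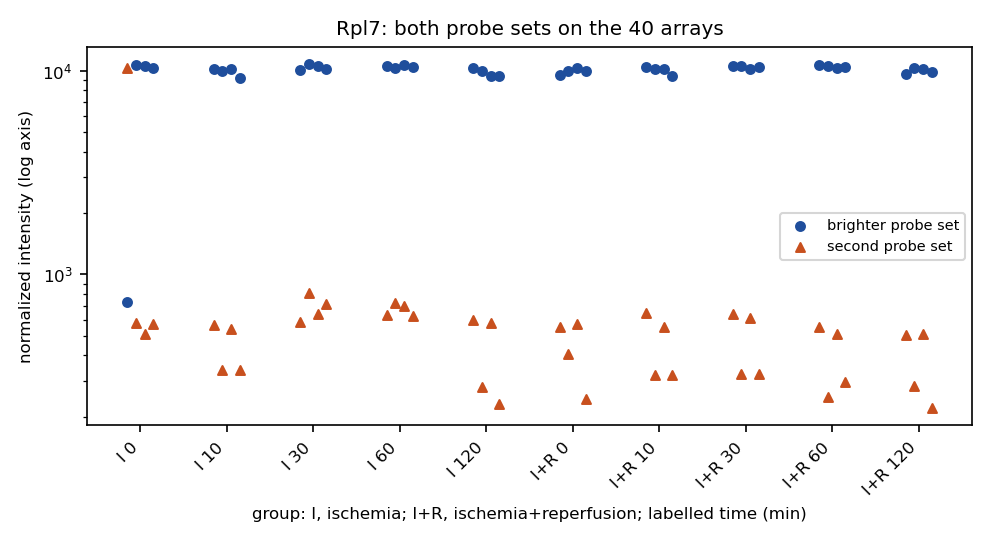
Normalized intensity (log axis) of the brighter (blue) and the second (orange) Rpl7 probe set on each of the 40 arrays by group; points of a group run from preparation 1, duplicate 1, to preparation 2, duplicate 2. The first array at 0 min of ischemia reads 732 and 10349 where the other 39 read 9174 to 10768 and 220 to 810, and in 7 groups the second probe set is lower in both duplicate 2 arrays.

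The paralog members were mostly dim. Rpl3l, the striated muscle form, was at or below 0 in the deposited values of 39 of the 40 arrays and was not tested, while its parent Rpl3 changed by 0.013 ± 0.050 at 120 min of ischemia. Rpl39l1 had a mean deposited intensity of 51.1 and was below the filter. Rpl26l1, with a mean of 193, read 166 to 191 at 0 min and 200 to 230 at 120 min of ischemia (0.20 ± 0.12 SE, limma adjusted p = 0.26), and its parent Rpl26 changed by 0.036 ± 0.051 there. Rpl7l1, with a mean of 1816, had a change of -0.18 ± 0.062 at 120 min of ischemia (SE, limma adjusted p = 0.072), which was -0.24 (0.017) without the pair. A second Rpl7l1 probe set, with a mean of 1383, changed by 0.035 ± 0.084 in the same comparison (limma adjusted p = 0.81), so the probe sets differ in sign. Rps4y2, with a mean of 597, had a change of 0.0034 ± 0.080 in ischemia and 0.19 ± 0.080 in ischemia+reperfusion at 120 min.

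The dim members of ordinary subunit genes gave less precise values. Rpl30 had a mean deposited intensity of 199 and an SE of 0.22 log2 units per comparison. Its arrays at 60 min of ischemia read 464, 200, 202 and 206, and those at 30 min of ischemia+reperfusion 213, 155, 388 and 161, so a single array raised each group. Rpl28 had a mean of 83.4, near the filter's 73.2. Rps13, a small subunit protein, had a mean of 60.5, below the filter, and the widest range of group means of all 47 members, 1.05. It read 41.7, 59.9, 52.6 and 52.2 at 0 min and 103, 127, 114 and 53.3 at 120 min of ischemia, where the low array is one of the pair set apart at that time. In a fit with no filter its change was 0.73 ± 0.18 (SE, limma adjusted p = 0.040), without the pair it was 0.96 ± 0.13 (0.0042), and without the array that stood apart at 0 min it was 0.63 ± 0.18 (0.066). In ischemia+reperfusion at 120 min it was 0.59 ± 0.18 (0.11).

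A second probe set showed a like pattern for Rps24, a small subunit protein whose transcript is alternatively spliced near its 3' end. The chosen Rps24 probe set read 10999, 11335, 11335 and 11308 at 0 min and 11198, 11150, 10768 and 11150 at 120 min of ischemia, with no call in any comparison. The second probe set, with a mean of 350, read 359, 356, 292 and 240 at 0 min, 431 to 484 at 60 min and 575, 576, 644 and 353 at 120 min of ischemia. It read 281, 273, 233 and 213 at 0 min and 343, 371, 644 and 352 at 120 min of ischemia+reperfusion. The arrays out of line at 120 min were those of the pair whose Hspa1a values went against their labels. The second probe set rose by 0.74 ± 0.15 (SE, limma adjusted p = 0.015) and by 0.70 ± 0.15 (0.026) at 120 min of ischemia and of ischemia+reperfusion. Without the pair these values were 0.95 ± 0.12 (0.0018) and 0.49 ± 0.12 (0.036), and the arms then differed at 120 min by -0.75 ± 0.12 (0.00996) where they had differed by -0.33 ± 0.15 (0.70) with it. At 0 min the arms differed by -0.29 ± 0.15 (limma adjusted p = 0.34, all arrays). The interaction at 120 min did not pass without the pair (-0.46 ± 0.17, limma adjusted p = 0.21). The annotation used here does not say which Rps24 transcripts either probe set reads.

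Genes around the ribosome were counted at 120 min from lists chosen with earlier results of these data known, beside 12.9% of all tested probe sets called in ischemia and 7.17% in ischemia+reperfusion. Both shares are from the fit to all arrays, and the shares that go with list counts without the pair are not given here. Of the ribosomal components outside the symbol rule, Rpsa and Rack1 were tested and neither was called, with changes of 0.017 and 0.032 in ischemia. Of 15 other mRNAs of the TOP type, elongation and initiation factors such as Eef1a1 and Eef2, 0 were called in ischemia (median -0.020) and 0 in ischemia+reperfusion (median -0.041). Eef1a1, which brings aminoacyl-tRNA to the ribosome, changed by -0.039 ± 0.051 and Eef2, the translocation factor, by -0.085 ± 0.053 in ischemia. Of 73 mitochondrial ribosomal proteins 1 rose and 1 fell in ischemia, Mrpl43 (0.29) and Mrpl46 (-0.28), and 0 were called in ischemia+reperfusion. Without the pair Mrps2 also fell in ischemia (-0.32).

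Genes of ribosome production were counted against the same 12.9% and 7.17%. Of 56 ribosome biogenesis genes Lyar rose in ischemia (0.28 ± 0.081 SE, limma adjusted p = 0.045) and 0 were called in ischemia+reperfusion. Without the pair Lyar had an adjusted p of 0.051 (limma), Utp3 fell in ischemia, and Pno1, Utp14a and Ddx10 fell in ischemia+reperfusion. Of 28 genes of RNA polymerases I and III and their factors, Taf1d, a subunit of the polymerase I selectivity factor, rose in ischemia (1.43 ± 0.31, adjusted p = 0.017, limma) and 0 were called in ischemia+reperfusion. Of 10 Myc network genes 0 were called in ischemia, and Mxd1, a Myc antagonist, rose in ischemia+reperfusion (0.77 ± 0.20, adjusted p = 0.042, limma). The medians of these lists in ischemia were 0.027, -0.029 and 0.32. Without the pair the polymerase list had 1 more call in each arm, Polr1b (-0.39) in ischemia and Brf2 (0.25) in ischemia+reperfusion.

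Regulators of TOP mRNAs were among the called genes. Of 22 tested genes of mTORC1 and TOP control 2 rose and 2 fell in each arm at 120 min, 4 of 22 beside the 12.9% and 7.17% of all probe sets, and nothing particular to the list was tested. Ddit4, a stress-induced inhibitor of mTORC1, rose by 2.50 ± 0.27 in ischemia (SE, limma adjusted p = 0.0012) and by 1.31 ± 0.27 in ischemia+reperfusion (0.020). Larp1, which binds TOP mRNAs, rose by 0.29 ± 0.071 in ischemia, and the AMP kinase subunits Prkaa1 and Prkaa2 fell by 0.40 and 0.61. In ischemia+reperfusion Eif4ebp1, a translation repressor released when mTORC1 is off, rose by 0.30, and Rps6kb1, the kinase of Rps6, and Rraga, a GTPase that brings mTORC1 to the lysosome, fell by 0.45 and 0.25. These 8 calls held without the pair of arrays at 120 min, where Prkaa1 fell in ischemia+reperfusion too (-0.27). Of 13 ribosome rescue and stress genes Cdkn1a, a p53 target, and G3bp1, a stress granule protein, rose in ischemia by 0.69 and 0.25, and Cdkn1a by 0.52 in ischemia+reperfusion. Leaving out the pair turned the order of the arms for Cdkn1a, to 0.49 in ischemia and 0.68 in ischemia+reperfusion. Without the pair Pelo, a ribosome rescue factor, and Mdm2, the p53 regulator, also rose in ischemia+reperfusion, by 0.44 and 0.37, and Map3k20, a kinase activated by stalled ribosomes, fell by 0.23 in ischemia. Whether these lists differ from the ribosomal protein genes was not tested.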

How the data were processed

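The deposited values are linear intensities per probe set, made by the authors with a summary method not given in the sources used here; 15.8% are negative and array medians run from 101 to 171. RNA was isolated on spin columns and amplified to biotin-labelled cRNA, per the labels' protocols. The number of arrays limits the precision. Arrays were quantile-normalized, floored at 0 and taken as log2(intensity + 16), so fold changes of dim genes are understated. A probe set was tested where its log2 mean passed the 40th percentile (6.48), which left 18625 of 31042. Duplicates were averaged and fitted with limma 3.58.1 (R 4.3.3) over 10 groups with preparation as an added term, since the labels give both preparations to every group. The difference between preparations correlated by a median of 0.18 between groups (34 of 45 pairs over 0.1). Two-sided p-values were adjusted by Benjamini-Hochberg within each of 13 comparisons, an interaction and an F test. The procedure was tested on simulated data. Figures used Python 3.11 and matplotlib 3.10.9.

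Platform annotation gave 1 symbol to 20826 probe sets, several to 436 and none to 9780; it can be old. Gene IDs of 45 members matched RefSeq, not those of Rpl37a and Rps9. Many ribosomal protein genes have near-identical processed pseudogenes, which a probe set may also read. Named were called members by size of change, the 5 members with the widest range of group means, paralogs with their parents, and up to 4 called genes per list at 120 min. The members, lists and alternatives were chosen with earlier results of these data known. Alternatives were the deposited scale, centring on array medians, a pseudocount of 64, no filter, no preparation term, arrays as samples, only probe sets without a suffix, and leaving out arrays; the bright-member medians and the lists without the pair were added after seeing the data.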

Additional observations from a re-analysis of the deposited data

Results flagged for a closer look

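Among 130 sets of 4 arrays examined, those of 10 members and 3 subunit measures in the 10 groups, 6 had 1 array far from the other 3, where chance alone gives about 1 in 20. Rpl22 read 13.16 on the log2 scale in preparation 2, duplicate 1, at 10 min of ischemia, where the others read 13.23 to 13.24. Rpl7 read 9.55 in preparation 1, duplicate 1, at 0 min of ischemia against 13.34 to 13.38, on the array whose 2 Rpl7 probe sets each lay in the other's range. Rps27l read 8.91 in preparation 2, duplicate 2, at 0 min of ischemia+reperfusion against 9.60 to 9.65. Rpl30 read 8.91 in preparation 1, duplicate 1, at 60 min of ischemia against 7.75 to 7.79. Rps28 read 13.14 in preparation 1, duplicate 1, at 30 min of ischemia against 12.98 to 12.99. Rpl39l1, below the filter, read 6.48 in preparation 1, duplicate 2, at 0 min of ischemia+reperfusion against 5.95 to 5.99.

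Second probe sets of member genes, which the comparisons of members do not use, gave 3 calls at 120 min by limma. That of Rpl7 changed by -1.54 ± 0.42 in ischemia (SE, adjusted p = 0.035), by -0.51 ± 0.080 (0.0052) without the 0 min array and by -1.22 ± 0.46 (0.088) without the pair of arrays at 120 min. Its fall lay in duplicate 2, with 574 and 574 at 0 min and 279 and 232 at 120 min of ischemia. Duplicate 1 read 512 at 0 min, leaving out the array that stood apart, and 597 and 579 at 120 min, so it did not fall. The second probe set of Rps24 rose by 0.74 in ischemia and 0.70 in ischemia+reperfusion. The part of the array sets that move with these values was not tested. In the interaction test at 120 min 0 of 44 members were called by limma, and 3 had an unadjusted p under 0.05.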

How the results depend on the processing

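On the deposited scale the number of members called became 0 at 10 min of ischemia, 7 at 120 min and 1 in the F test. The 7 were a slightly smaller share than that of all probe sets called lower. On this scale the F test called 9.22% of probe sets above 3000 and 33.4% of all. The median member change there was -0.14, -0.10, -0.050 and -0.25 at 10, 30, 60 and 120 min of ischemia, 0.071, -0.027 and -0.093 at 10, 30 and 120 min of ischemia+reperfusion, and -0.18, 0.029, -0.11, -0.13 and -0.022 between the arms at 0, 10, 30, 60 and 120 min, with 0.17 for the interaction. Rpl22 reversed at 120 min of ischemia, to -0.053. With arrays centred on their median 29 members were called between the arms at 60 min and 32 in the F test, which called 27.4% of probe sets above 3000 and 18.4% of all there, and the medians were -0.19, 0.10, 0.12 and -0.057 in ischemia, 0.057, -0.034 and -0.058 at 30, 60 and 120 min of ischemia+reperfusion, and -0.22, -0.056, -0.26, -0.40 and -0.22 between the arms. On both scales large minus small was 0.046 between the arms at 60 min. The cause was not tested.

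Counts of members called also moved under other settings. The shares of all probe sets called under these settings are not given beside the counts, so the counts do not set the members apart. With a pseudocount of 64 there were 2 at 120 min of ischemia. With no filter there were 2 at 10 min and 4 at 120 min of ischemia, 1 at 60 min of ischemia+reperfusion, 1 between the arms at 30 min and 6 in the F test; the members below the filter are tested there too. With no replicate block for preparation there were 0 at 120 min of ischemia, and no other count moved by over 1.5 times. With each array as a sample there were 0 at 10 min and 3 at 120 min of ischemia, 1 at 60 min of ischemia+reperfusion, 2 between the arms at 60 min and 8 in the F test. With only probe sets without a suffix there were 2 at 120 min of ischemia and 1 at 120 min of ischemia+reperfusion. Without the pair of arrays at 120 min there were 0 at 10 min and 2 at 120 min of ischemia, and without the 0 min array 0 at 10 min. Leaving out each array in turn gave 0 to 1 at 10 min and 0 to 3 at 120 min of ischemia, 0 to 1 at 120 min of ischemia+reperfusion, 0 to 1 between the arms at 60 min and 0 to 2 in the F test. Of 211 results, 190 to 209 kept their direction and side of the threshold or moved by less than the spread, depending on the setting. Dim probe sets limit Rpl28, Rpl30 and the members below the filter.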
